A study of Mus musculus with 7 samples.

Results

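The B cell receptor passes its signal on through a set of kinases, adaptors, calcium channels and small GTPases inside the cell, and 37 of these downstream genes were followed here in splenic B cells of mice with a B lineage knockout of the transcription factor gene Foxp1. The genes were chosen by name for their place in the pathway, with earlier results of these data known. All 37 had a usable value in all 7 libraries, out of 23508 genes that did. The RNA came from C57Bl/6 splenocytes left after magnetic depletion of cells that carry CD43, which resting follicular B cells mostly lack and most other leukocytes carry, and the library kit does not mark strand, so reads of overlapping genes cannot be told apart. The 4 knockout libraries (cKO) came from mice labelled as conditional knockouts of Foxp1 made with CD19cre, a Cre active in the B lineage, and the 3 reference libraries from wild type B6 mice (WT). No Cre-only control is labelled, no age is given, and it is not said whether each library is its own animal. The p-values therefore rest on the spread between libraries, which may be technical.

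When antigen cross-links the receptor, its CD79 chains are phosphorylated by Src family kinases and recruit the kinase Syk. Syk and the kinase Btk act with the adaptor Blnk (SLP-65) to switch on phospholipase C-gamma-2, which makes inositol trisphosphate and diacylglycerol. The first opens calcium stores and so feeds calcineurin and the NFAT factors, while the second feeds protein kinase C-beta and the Bcl10 and Malt1 proteins that lead to NF-kB, and, through Rasgrp3, the Ras and MAP kinase chain. In resting follicular B cells this machinery is kept ready, and a low tonic signal through it is needed for survival.

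Levels are given as FPKM, which corrects fragment numbers for transcript length and for library size, so that they can be set side by side between genes. The libraries split by the sequencing lane named in the labels: cKO 1, cKO 4, WT 2 and WT 3 ran on lane 5, and cKO 2, cKO 3 and WT 1 on lane 7. Foxp1, the deleted gene, was at 21.3, 18.9, 18.4 and 29.0 FPKM in cKO 1 to 4 and at 33.4, 38.3 and 42.7 FPKM in WT 1 to 3. The groups did not overlap, at a log2 fold change of -0.81 (SE 0.22, limma adjusted p = 0.159) and a lane-term value of -0.75 (SE 0.16, limma adjusted p = 0.0104), and a whole-gene value also counts exons outside the deleted part. With each library centred on the 8 B cell markers named next, the fold change of Foxp1 was -0.28 (limma adjusted p = 0.117). These markers, among them Ms4a1 (CD20) and Cd37, summed to 797 to 1412 FPKM in cKO and 1218 to 1605 FPKM in WT, so the labelled cell type was present in each library. The 10 markers of monocytes and macrophages summed to 852 to 1074 FPKM in cKO and 235 to 449 FPKM in WT, and all 10 had a positive fold change. The most abundant of these lists were Ms4a1 and Faim3 for B cells, at 421.4 ± 82.4 and 191.2 ± 64.8 FPKM in cKO (SD, n = 4) and 572.5 ± 35.8 and 284.2 ± 64.0 FPKM in WT (SD, n = 3), and Lyz2 and Tyrobp for monocytes and macrophages, at 331.5 ± 92.3 and 265.7 ± 16.8 FPKM in cKO (SD, n = 4) and 92.7 ± 14.9 and 103.0 ± 25.0 FPKM in WT (SD, n = 3). NK cell markers summed to 34.5 to 75.2 FPKM in cKO and 15.4 to 19.1 FPKM in WT, T cell markers to 9.22 to 37.9 FPKM in cKO and 4.12 to 13.6 FPKM in WT, and platelet markers to 37.5 to 109.9 FPKM in cKO and 20.5 to 37.9 FPKM in WT. Neutrophil markers summed to 84.0 to 186.6 FPKM in cKO and 27.2 to 40.0 FPKM in WT, and erythroid markers to 84.2 to 2262 FPKM in cKO and 68.8 to 750.9 FPKM in WT. No listed marker was at 0 in both groups. In these bulk libraries, fewer B cells and less RNA per B cell cannot be told apart.

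The pathway genes covered a wide range of levels, with 29 of the 37 above 10 FPKM on average over the 7 libraries. The scaffold gene Bank1 was the most abundant at a mean of 99.3 FPKM, followed by the GTPase gene Rac2 at 85.4, Syk at 80.7 and the inhibitory adaptor gene Dok3 at 62.9. Neighbours in this order changed places between libraries, with Bank1 above Rac2 in 5 of the 7, Rac2 above Syk in 4 and Syk above Dok3 in 5, while Bank1 was above Dok3 in all 7. At the other end stood the NFAT factor gene Nfatc2 at 1.25 FPKM, the Ras exchange factor gene Sos1 at 1.94 and the Rac exchange factor gene Vav3 at 4.12.

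**Figure D1:**
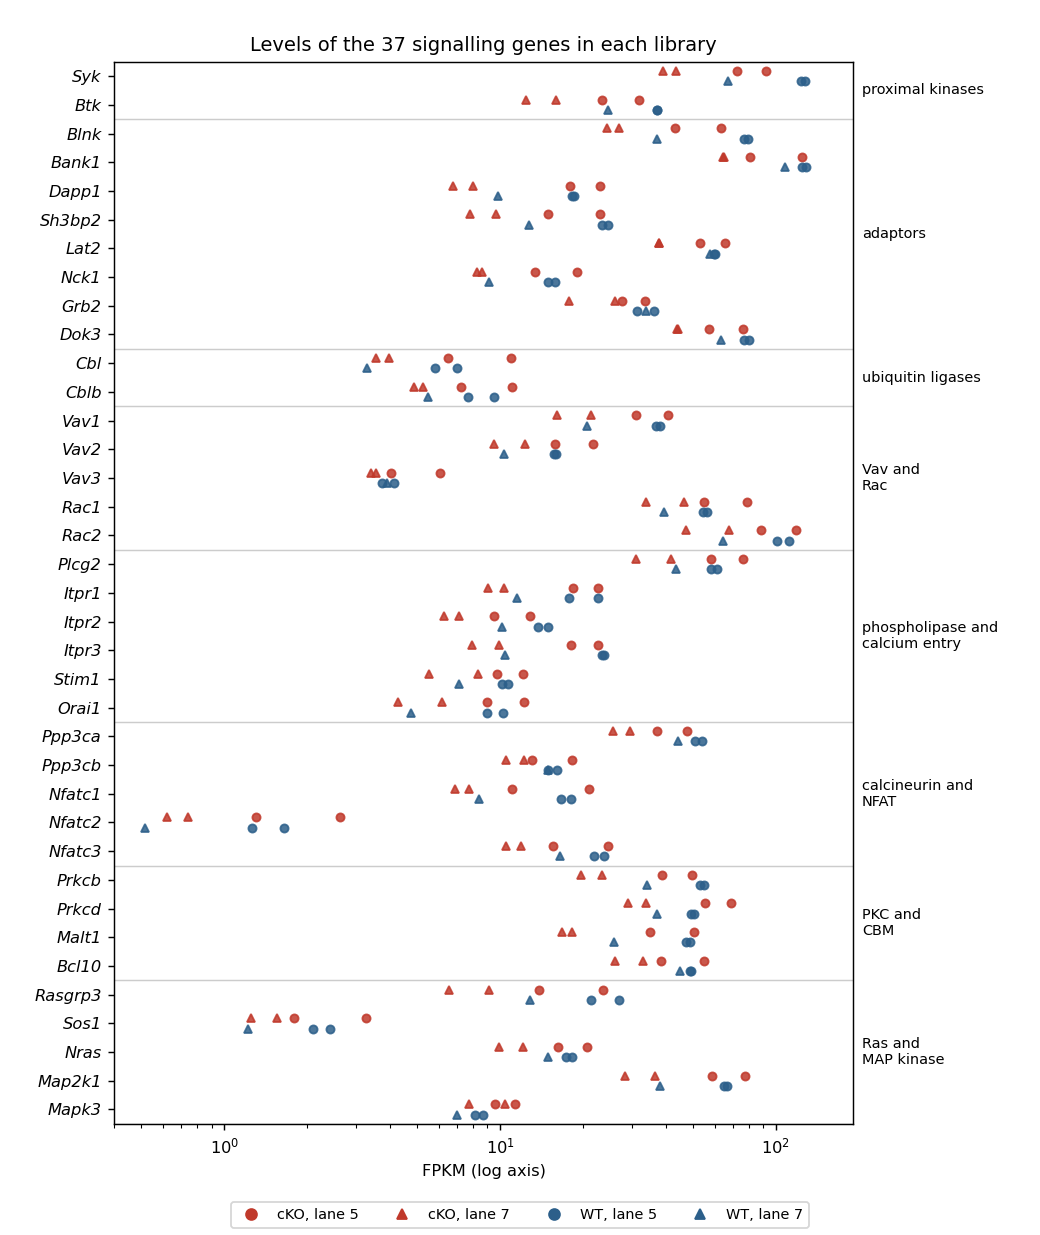
Level of each of the 37 genes in each library in FPKM on a log axis, grouped by role, with cKO libraries above WT libraries in each row, circles for lane 5 and triangles for lane 7. For most genes the lane 7 libraries lie to the left, and in each of the rows the cKO and WT points overlap.

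The libraries of the 2 lanes lay apart: the 37 genes differed between lane 7 and lane 5 by a median of -0.75 on the log2 scale, beside -0.50 over all genes tested. In 25 of the 37 genes all 3 libraries of lane 7 were below all 4 of lane 5, which also held for 54.9% of the 10065 genes tested. In the limma fit with terms for both genotype and lane, 30 of the 37 were lower in lane 7 and 0 higher, against 58.2% and 8.67% of all genes tested. The lane 5 library cKO 4 was the highest of all 7 libraries for 25 of the 37, and the lane 7 library cKO 2 the lowest for 30. No such count was made over all genes tested. Libraries cKO 4 and cKO 2 also had the highest and the lowest median log2(FPKM + 0.5) over all genes tested, at 3.33 and 2.52. A difference between genotypes is therefore given below over all libraries, with the lane as a term, and within each lane.

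Without a lane term, 0 of the 37 genes passed the threshold (limma, adjusted p under 0.05 over 10065 genes), where 1.32% of all genes did, 1.27% higher and 0.0497% lower, and 0 had an unadjusted p under 0.05, where 9.56% of all genes were higher and 1.1% lower. The smallest adjusted p of a member was 0.482 in this limma fit. A negative fold change in cKO was found for 30 of the 37 and a positive one for 7, where 61.5% of all genes were negative, and the median log2 fold change was -0.25, beside -0.09 over all genes tested. In lane 5 alone 20 were negative and 17 positive, with a median of -0.03 beside 0.08 over all genes. In lane 7 alone 30 were negative and 7 positive, with a median of -0.26 beside -0.11 over all genes. A lane term brought 1 of the 37 past the threshold, Syk, which was lower, where limma called 10.8% of all genes, 1.19% lower and 9.59% higher. In that fit 9 members were lower at an unadjusted p under 0.05 and 0 higher, against 5.22% and 17.8% of all genes. The median of the 37 was -0.15, beside -0.0023 over all genes and -0.45 over the 8 B cell markers. Limma called 1 of these 8 markers lower, Ralgps2, at -0.69 (limma adjusted p = 0.0286), and 0 higher.

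No member had cKO and WT groups that kept apart over all 7 libraries, where 7.99% of all genes tested were higher and 2.14% lower without overlap. An order kept only within each lane is a looser rule, which more of all genes tested met as well. In 9 of the 37 both cKO libraries of lane 5 were below both WT libraries and both cKO libraries of lane 7 below the single WT library there, which held for 8.63% of all genes. These were Syk, Btk, Blnk, Dok3, Sh3bp2, Itpr2, Itpr3, Ppp3ca and Prkcb. The opposite order was found for 1 member, the MAP kinase gene Mapk3, and for 19.2% of all genes.

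**Figure D2:**
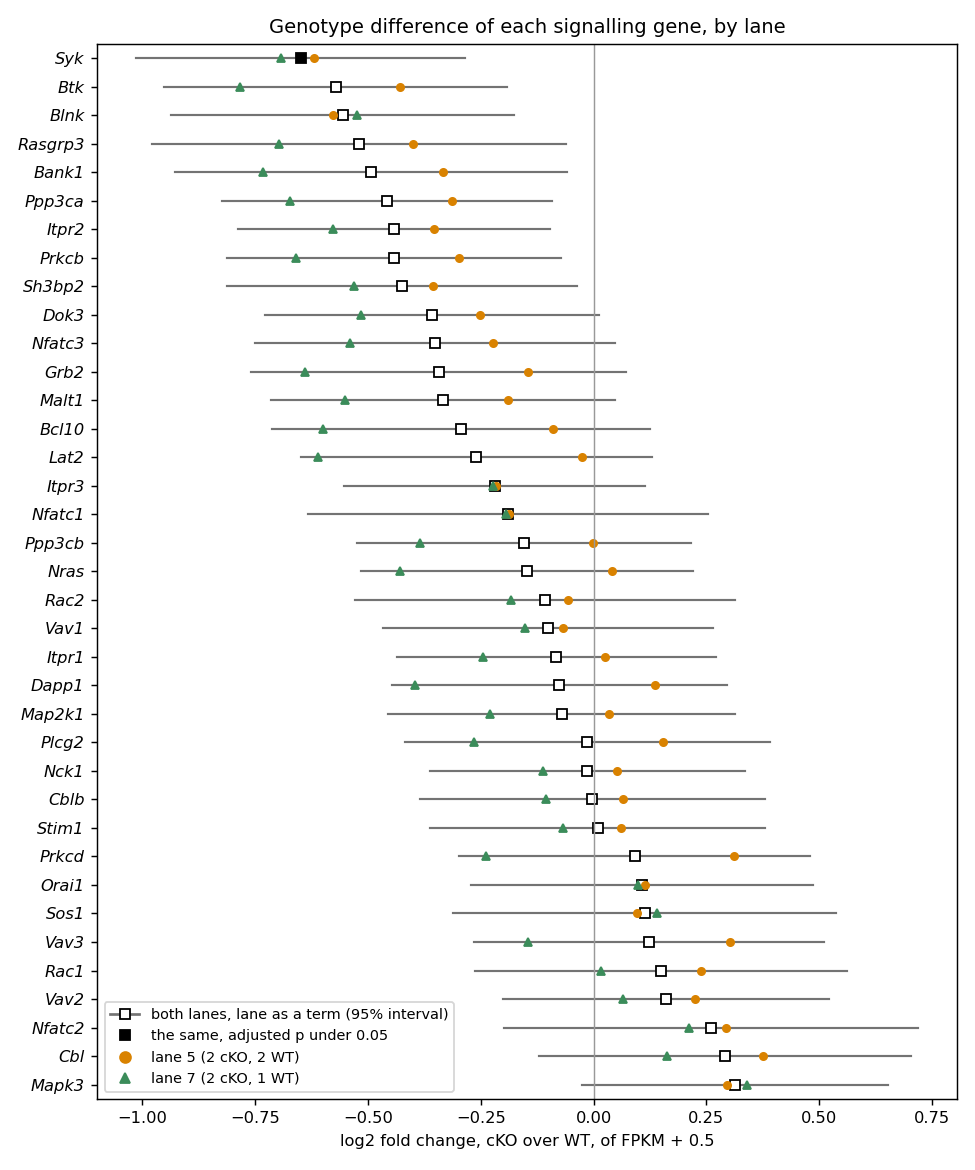
Log2 fold change of cKO over WT for each of the 37 genes, from the fit with the lane as a term (squares, with 95% intervals), from lane 5 alone (circles) and from lane 7 alone (triangles). Syk at the top is the 1 filled square, with -0.65, and Mapk3 at the bottom has 0.31.

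Promoter sequences of 29 of the 37 genes were found in RefSeq (GRCm38.p6), in 39 windows from 250 bases before to 50 after a transcription start. The forkhead core TGTTTAC, the kind of site that Foxp1 binds, was present on either strand at 3 of the 29, Nfatc2, Nfatc3 and Nras, a share of 10.3%, beside 4.05% of 27025 genes with such windows. The octamer ATGCAAAT, read by the factors Oct-1 and Oct-2, was present at Blnk, Itpr3, Orai1 and Prkcb, a share of 13.8% beside 1.97%. The PU.1 site GAGGAAGT was present at Grb2, Nfatc3, Rasgrp3, Sh3bp2 and Vav1, a share of 17.2% beside 3.69%. No window held more than 1 of the 3 motifs. Blnk, Prkcb and Itpr3 carry the octamer and are among the 9 genes that were lower in cKO within both lanes. Orai1 carries it too and had a lane-term fold change of 0.11, while Syk, Btk, Dok3, Sh3bp2 and Itpr2, also among the 9, have windows without it. A link between the octamer and expression was not tested. The promoters of Blnk, Prkcb and Itpr3 are shown, 5′ to 3′ on the strand of the gene, with the octamer or its reverse complement in capitals.
Blnk, chr19:40994172-40994471, minus strand: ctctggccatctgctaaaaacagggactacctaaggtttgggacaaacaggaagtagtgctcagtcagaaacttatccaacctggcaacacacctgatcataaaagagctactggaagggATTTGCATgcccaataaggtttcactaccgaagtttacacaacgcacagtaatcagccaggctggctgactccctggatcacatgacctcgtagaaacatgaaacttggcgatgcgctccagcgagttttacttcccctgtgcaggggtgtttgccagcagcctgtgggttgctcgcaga
Prkcb, chr7:122288875-122289174, plus strand: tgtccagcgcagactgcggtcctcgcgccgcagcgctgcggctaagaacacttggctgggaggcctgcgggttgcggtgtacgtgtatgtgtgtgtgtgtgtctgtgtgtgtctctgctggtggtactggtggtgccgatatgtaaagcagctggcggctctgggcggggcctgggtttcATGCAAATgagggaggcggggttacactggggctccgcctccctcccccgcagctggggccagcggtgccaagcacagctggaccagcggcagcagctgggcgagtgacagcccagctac
Itpr3, chr17:27057054-27057353, plus strand: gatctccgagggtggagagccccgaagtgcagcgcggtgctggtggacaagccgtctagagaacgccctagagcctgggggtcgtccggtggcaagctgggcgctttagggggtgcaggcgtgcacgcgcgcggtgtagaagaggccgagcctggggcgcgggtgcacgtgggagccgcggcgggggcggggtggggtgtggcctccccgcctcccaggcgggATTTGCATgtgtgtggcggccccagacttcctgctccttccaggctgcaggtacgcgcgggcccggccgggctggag
Relative to the transcription start the octamer lies at -130 in Blnk, -70 in Prkcb and -27 in Itpr3. None of the 3 windows holds the forkhead core or the PU.1 site.

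Syk (chromosome 13, 52583436 to 52648792, GRCm38), the kinase that docks on the phosphorylated receptor, was at 72.1, 39.1, 43.6 and 92.2 FPKM in cKO 1 to 4 and at 67.0, 127.6 and 123.5 FPKM in WT 1 to 3. Both cKO libraries of each lane were below the WT libraries of that lane, while over both lanes the groups overlapped, since WT 1 of lane 7 was below the 2 cKO libraries of lane 5. Its log2 fold change was -0.81 (SE 0.36, limma adjusted p = 0.482). A lane term gave -0.65 (SE 0.17, limma adjusted p = 0.0287). Within lanes the difference was -0.62 in lane 5 and -0.69 in lane 7. The call depended on the libraries: with the lane term the limma adjusted p of Syk was 0.0387 without cKO 2 and 0.00703 without cKO 4, and between 0.0618 and 0.183 without each of the other 5. Without cKO 4 the same fit called 12 of the 37 members, all lower, where 5.79% of all genes were called lower, 14.1% higher and 19.9% in either direction.

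Btk (chromosome X, 134542340 to 134583140), the Tec family kinase whose loss causes agammaglobulinaemia in humans, had 23.5, 12.4, 15.9 and 32.0 FPKM in cKO 1 to 4 and 24.6, 37.2 and 36.9 FPKM in WT 1 to 3. It followed the same order as Syk within each lane. Its fold change was -0.70 (SE 0.34, limma adjusted p = 0.519). The lane-term value was -0.57 (SE 0.17, limma adjusted p = 0.0594), from -0.43 in lane 5 and -0.78 in lane 7.

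Among the 8 adaptors, all had a negative fold change in both fits, from -0.73 to -0.15 without and from -0.56 to -0.01 with the lane term, and 0 were called in either limma fit. Blnk (chromosome 19, 40928926 to 40994535), the scaffold on which Syk and Btk meet phospholipase C-gamma-2, was at 43.0, 24.3, 26.9 and 63.4 FPKM in cKO 1 to 4 and at 37.1, 79.5 and 76.7 FPKM in WT 1 to 3. All cKO libraries were below the WT libraries of their lane. Its fold change was -0.73 (SE 0.40, limma adjusted p = 0.620) and its lane-term value -0.56 (SE 0.17, limma adjusted p = 0.0654). Bank1, a scaffold of Lyn and the inositol trisphosphate receptor, had 80.7, 64.4, 65.0 and 124.4 FPKM in cKO 1 to 4 and 107.8, 123.9 and 128.9 FPKM in WT 1 to 3. Here cKO 4 was level with the WT libraries and the other 3 cKO libraries were below all of them, with a fold change of -0.57 (SE 0.27, limma adjusted p = 0.512) and a lane-term value of -0.49 (SE 0.20, limma adjusted p = 0.155). Dok3, an adaptor that dampens calcium signalling, averaged 55.2 ± 15.03 FPKM in cKO (SD, n = 4) and 73.3 ± 8.92 FPKM in WT (SD, n = 3). Sh3bp2, a partner of Syk and Vav proteins, averaged 13.9 ± 6.87 FPKM in cKO (SD, n = 4) and 20.2 ± 6.51 FPKM in WT (SD, n = 3).

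Lat2 (NTAL), a membrane adaptor, averaged 48.5 ± 13.4 FPKM in cKO (SD, n = 4) and 59.3 ± 1.32 FPKM in WT (SD, n = 3). Grb2, which links receptors to the Ras exchange factor SOS, stood at 26.2 ± 6.49 FPKM in cKO (SD, n = 4) and 33.8 ± 2.33 FPKM in WT (SD, n = 3). For Dapp1 (Bam32), a phosphoinositide-binding adaptor, and Nck1, an adaptor to the actin machinery, the lane-term fold changes were -0.08 and -0.01, with 95% intervals of -0.45 to 0.30 and -0.36 to 0.34. The ubiquitin ligase genes Cblb and Cbl, which mark activated signalling proteins for removal, had lane-term fold changes of -0.0029 and 0.29, with 95% intervals of -0.39 to 0.38 and -0.12 to 0.70.

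Plcg2 (chromosome 8, 117498290 to 117635142), the phospholipase at the branch point of the pathway, was at 58.1, 31.2, 41.7 and 75.9 FPKM in cKO 1 to 4 and at 43.4, 58.2 and 61.1 FPKM in WT 1 to 3. The groups were interleaved, and the lane-term fold change was -0.01 with a 95% interval of -0.42 to 0.39. Its partners upstream, Syk, Btk and Blnk, had lane-term fold changes of -0.65, -0.57 and -0.56, but the difference between these genes and Plcg2 was not tested.

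The 3 inositol trisphosphate receptors, which release calcium from the endoplasmic reticulum, were at similar levels, with means over the 7 libraries of 16.0 FPKM for Itpr1, 10.6 for Itpr2 and 16.6 for Itpr3. Itpr2 was at 9.5, 6.25, 7.11 and 12.9 FPKM in cKO 1 to 4 and at 10.2, 13.7 and 14.9 FPKM in WT 1 to 3, so that each cKO library was below the WT libraries of its lane. Its fold change was -0.54 (SE 0.29, limma adjusted p = 0.596) and its lane-term value -0.44 (SE 0.16, limma adjusted p = 0.104). For Itpr1 and Itpr3 the lane-term fold changes were -0.08 and -0.22. Stim1, the calcium sensor of the store, and Orai1, the channel of the plasma membrane that it opens, had 0.01 and 0.11, with 95% intervals of -0.36 to 0.38 and -0.27 to 0.49.

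Of the calcineurin catalytic subunits, Ppp3ca was at 37.2, 25.6, 29.6 and 47.5 FPKM in cKO 1 to 4 and at 44.2, 50.8 and 53.9 FPKM in WT 1 to 3. Only cKO 4 reached the range of the WT libraries. Its fold change was -0.53 (SE 0.25, limma adjusted p = 0.50) and its lane-term value -0.46 (SE 0.17, limma adjusted p = 0.113). Ppp3cb averaged 13.5 ± 3.35 FPKM in cKO (SD, n = 4) and 15.3 ± 0.618 FPKM in WT (SD, n = 3). The NFAT factors that calcineurin activates were led by Nfatc3, at 15.6 ± 6.31 FPKM in cKO (SD, n = 4) and 20.8 ± 3.81 FPKM in WT (SD, n = 3), and Nfatc1, at 11.6 ± 6.46 FPKM in cKO (SD, n = 4) and 14.4 ± 5.24 FPKM in WT (SD, n = 3).

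The 2 protein kinase C genes did not have the same order. Prkcb (chromosome 7, 122289124 to 122634401), which is needed for NF-kB activation by the receptor in mice, was at 38.6, 19.7, 23.5 and 49.8 FPKM in cKO 1 to 4 and at 34.2, 53.0 and 55.1 FPKM in WT 1 to 3. Prkcd (chromosome 14, 30595353 to 30626208), which restrains B cells in mice and is also used by myeloid cells, was at 55.4, 29.0, 33.9 and 68.9 FPKM in cKO 1 to 4 and at 37.1, 50.4 and 49.1 FPKM in WT 1 to 3. In lane 5 the cKO libraries were below WT for Prkcb and above WT for Prkcd, and in lane 7 they were below WT 1 for both. Lane-term fold changes were -0.44 for Prkcb (SE 0.17, limma adjusted p = 0.131) and 0.09 for Prkcd (SE 0.18, limma adjusted p = 0.841). Of the NF-kB adaptors, Bcl10 averaged 38.2 ± 12.3 FPKM in cKO (SD, n = 4) and 47.6 ± 2.35 FPKM in WT (SD, n = 3), and the paracaspase gene Malt1 30.1 ± 15.8 FPKM in cKO (SD, n = 4) and 40.6 ± 12.8 FPKM in WT (SD, n = 3).

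In the Ras and MAP kinase chain, Rasgrp3, the diacylglycerol-driven Ras activator of B cells, averaged 13.3 ± 7.54 FPKM in cKO (SD, n = 4) and 20.4 ± 7.13 FPKM in WT (SD, n = 3), with a lane-term fold change of -0.52 (SE 0.21, limma adjusted p = 0.156). Mapk3 (ERK1), the last kinase of the chain, was at 9.57, 7.73, 10.4 and 11.3 FPKM in cKO 1 to 4 and at 6.98, 8.67 and 8.08 FPKM in WT 1 to 3. The cKO libraries were above the WT libraries of their lane, with a lane-term fold change of 0.31 (SE 0.15, limma adjusted p = 0.261). Nras, Map2k1 (MEK1) and Sos1 had lane-term fold changes of -0.15, -0.07 and 0.11, all with 95% intervals that held 0.

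The Vav proteins, which activate Rac, and the Rac GTPases, which drive spreading of the cell, had lane-term fold changes from -0.11 to 0.16 over 5 genes, and 0 were called. Vav1, the main form in blood cells, averaged 27.3 ± 10.9 FPKM in cKO (SD, n = 4) and 31.8 ± 9.66 FPKM in WT (SD, n = 3), and Vav2 14.9 ± 5.29 FPKM in cKO (SD, n = 4) and 14.0 ± 3.20 FPKM in WT (SD, n = 3). Rac1, found in most tissues, averaged 53.4 ± 18.8 FPKM in cKO (SD, n = 4) and 50.1 ± 9.46 FPKM in WT (SD, n = 3), and Rac2, of blood cells, 80.3 ± 30.1 FPKM in cKO (SD, n = 4) and 92.2 ± 24.6 FPKM in WT (SD, n = 3).

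A ratio of related genes within 1 library does not depend on the scaling of that library, so 7 families were also compared as the share of 1 gene in the summed FPKM of its family. The share of Prkcb in the sum of Prkcb and Prkcd was 41.0%, 40.4%, 41.0% and 42.0% in cKO 1 to 4 and 48.0%, 51.2% and 52.9% in WT 1 to 3. The libraries of each group lay close together in both lanes, and the groups were apart. The difference was -9.63 percentage points, with -10.6 in lane 5 and -7.32 in lane 7 (two-sided exact permutation test, p = 0.0571, adjusted p = 0.1 over 7 families). With 35 ways to divide 7 libraries into 4 and 3, this p is the smallest the test can give. The sums of the monocyte and macrophage markers, given above, were 852 to 1074 FPKM in cKO and 235 to 449 FPKM in WT, and their part in this share was not tested.

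The share of Ppp3ca in the sum with Ppp3cb was 74.0%, 70.9%, 70.8% and 72.2% in cKO 1 to 4 and 74.7%, 77.2% and 77.1% in WT 1 to 3. Rac1 held 38.4%, 41.7%, 40.6% and 39.9% of the sum with Rac2 in cKO 1 to 4 and 37.8%, 35.8% and 32.9% in WT 1 to 3. For Itpr1 the share of the 3 receptors was 39.9%, 38.8%, 37.7% and 39.0% in cKO 1 to 4 and 35.8%, 32.1% and 37.2% in WT 1 to 3. In each of these 3 families the groups were apart, by -4.39, 4.63 and 3.84 percentage points, at the same smallest p of 0.0571 in the two-sided exact permutation test and adjusted p = 0.1. The gap between the nearest libraries was narrow for Rac1, Itpr1 and Ppp3ca, and wide only for Prkcb among the 4. Shares of Vav1, Nfatc1 and Cblb in their families overlapped between the groups, with 58.3% ± 2.50, 39.8% ± 2.60 and 54.4% ± 3.98 in cKO (SD, n = 4) and 63.3% ± 3.54, 38.8% ± 4.99 and 58.9% ± 3.05 in WT (SD, n = 3).

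**Figure D3:**
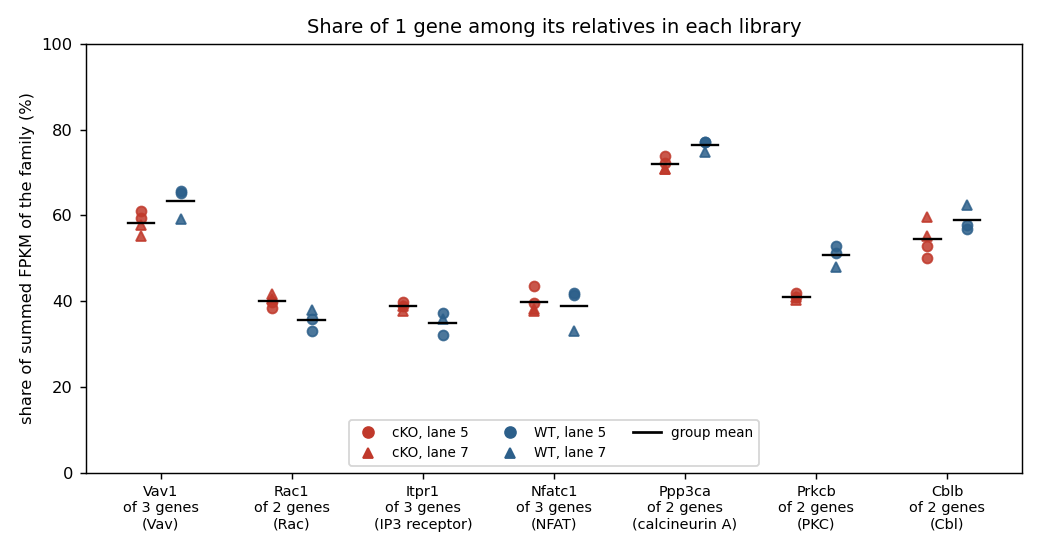
Share of 1 gene in the summed FPKM of its family, in percent, for 7 families, with cKO libraries left of WT libraries, circles for lane 5, triangles for lane 7 and lines for group means. Prkcb averages 41.1% in cKO and 50.7% in WT, and its 4 cKO points nearly coincide.

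How the 37 genes stood as a group depended on what they were set against. Their median log2(FPKM + 0.5) was 3.46 to 4.59 in cKO and 3.95 to 4.61 in WT. Set against the median of all genes tested in the same library, they were 0.89 to 1.27 higher in cKO and 1.28 to 1.57 higher in WT, and the groups did not overlap. Set against the mean of the 8 B cell markers, the mean of the 37 was -2.31 to -2.07 in cKO and -2.51 to -2.33 in WT, which again did not overlap but lay the other way round. Both gaps were narrow. Against all genes, the nearest libraries were cKO 4 at 1.27 and WT 1 at 1.28. Against the B cell markers, they were cKO 2 at -2.31 and WT 2 at -2.33. The members were chosen with results of these data known, so these levels are a description.

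**Figure D4:**
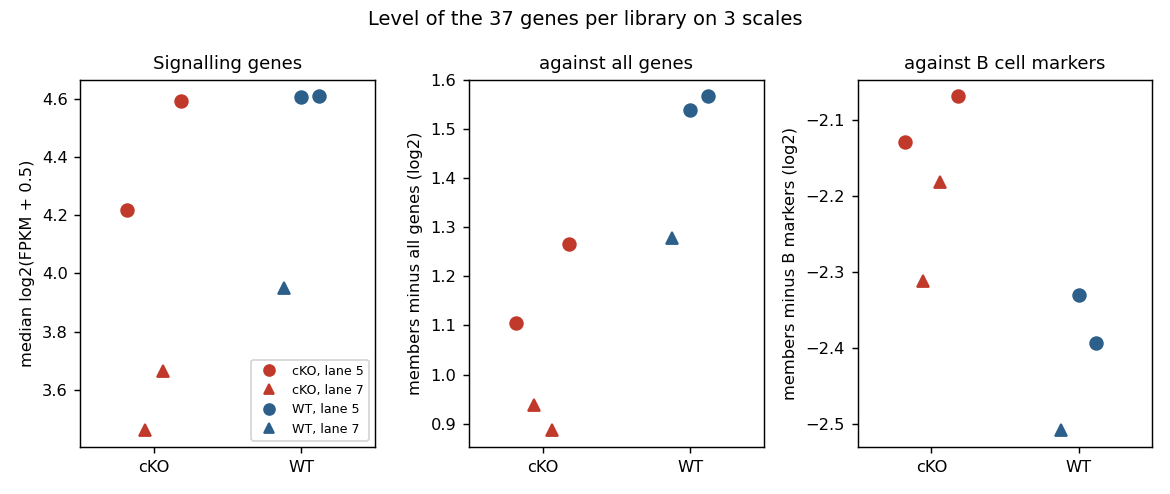
Level of the 37 genes in each library, with cKO left of WT, circles for lane 5 and triangles for lane 7, as their median log2(FPKM + 0.5) on the left, minus the median of all genes tested in the middle, and as their mean minus the mean of 8 B cell markers on the right. The cKO libraries lie below WT in the middle panel and above WT in the right panel, each by a narrow gap between the nearest libraries.

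The counts called followed the scale. With each library centred on the median of all genes, limma called 2 members lower, Itpr2 and Ppp3ca, and 0 higher, where 0.705% of all genes were lower and 2.31% higher, 3.02% in all. With that centring and the lane as a term it called 14 lower and 0 higher, where 12.7% of all genes were lower and 9.46% higher, 22.1% in all. The 14 were Syk, Btk, Blnk, Bank1, Dok3, Grb2, Sh3bp2, Itpr2, Itpr3, Ppp3ca, Nfatc3, Prkcb, Malt1 and Rasgrp3, and Syk had the smallest limma adjusted p, 0.00269. With each library centred instead on the B cell markers and no lane term, the median fold change of all genes tested moved to 0.43, and relative to these markers 9 members were called higher and 0 lower, where 31.2% of all genes were called higher and 0.0894% lower, 31.3% in all. These 9 were Cbl, Cblb, Mapk3, Prkcd, Rac1, Sos1, Stim1, Vav2 and Vav3, while Syk had a fold change of -0.28 (limma adjusted p = 0.208). All 8 B cell markers had a negative fold change without centring, with a median of -0.55, and the median of the members, -0.25, lay between that of these markers and that of all genes, -0.09.

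Other genes of the pathway were taken from a list of 56, of which 55 had a usable value and 54 were tested. Limma called 1 of the 54 higher and 0 lower, where 1.27% of all genes were higher and 0.0497% lower. With the lane term it called 5 higher and 2 lower, where 9.59% of all genes were higher and 1.19% lower, so the higher calls were near the share over all genes. Their median fold change was -0.18, beside -0.25 for the 37 and -0.09 for all genes. Lcp2 (SLP-76), which does the work of Blnk in T cells, myeloid cells and platelets, was the 1 gene called in both fits, at 11.3, 9.14, 11 and 15.5 FPKM in cKO 1 to 4 and at 3.06, 2.58 and 2.60 FPKM in WT 1 to 3. Its log2 fold change was 1.89 (SE 0.24, limma adjusted p = 0.0447), while Blnk had -0.73. The call of Lcp2 without the lane term was kept when WT 1 was left out and lost without each of the other 6 libraries, while its lane-term fold change was 1.92 (SE 0.18, limma adjusted p = 0.000603). The adaptor genes Gab2 and Dok2, the Src family kinase gene Fgr and the co-receptor gene Cd81 were the other 4 called higher with the lane term, at 1.08, 1.17, 0.93 and 0.76 on the log2 scale, with limma adjusted p-values of 0.00474, 0.000921, 0.00282 and 0.0387. Fgr and Dok2 are used by myeloid cells. In that fit limma also called higher all 10 monocyte and macrophage markers tested, all 5 T cell markers, 5 of 6 NK cell markers, 5 of 6 neutrophil markers and 4 of 5 platelet markers. Of the 6 erythroid markers it called 0, and of the 8 B cell markers 0 higher and 1 lower. The part of these cell types in the results was not tested.

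Of the 2 genes called lower with the lane term, the Src family kinase gene Blk was at 55.5, 46.6, 55.1 and 78.3 FPKM in cKO 1 to 4 and at 103.6, 113.0 and 109.8 FPKM in WT 1 to 3. The groups did not overlap in either lane. Its log2 fold change was -0.91 (SE 0.22, limma adjusted p = 0.111) and its lane-term value -0.86 (SE 0.18, limma adjusted p = 0.0102).

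In the authors' deposited table, which compares 2 arms named q1 and q2 built from these libraries, 30 of the 37 members have a negative test statistic and 7 a positive one. No header says which arm is which genotype, and Foxp1 has a negative statistic there. The signs of all 37 members and of Foxp1 match those of their fold changes of cKO over WT without a lane term. Blnk is the 1 member of 37 with q under 0.05 in the authors' deposited table (q = 0.0413), where 15.2% of the 12100 genes tested there pass. Btk follows in the authors' deposited table with q = 0.0564, Rasgrp3 with 0.0738 and Sh3bp2 with 0.0753. Syk has q = 0.176 in the authors' deposited table.

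Whether the genotype difference depended on the lane was tested as an interaction. Limma passed 0 of the 37 members and 5 of all 10065 genes, and 0 members had an unadjusted p under 0.05. The fold change was lower in lane 7 than in lane 5 for 34 of the 37, by values from -0.58 to 0.05 over all 37 on the log2 scale. Over all genes tested the signs shifted the same way: 34.5% were negative in lane 5 alone and 61.5% in lane 7 alone. The medians were 0.08 and -0.11. The share of all genes with a lower fold change in lane 7 was not counted. Lane 7 held 1 WT library, so the interaction rests on that library and a count of 0 says little.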

How the data were processed

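RNA was sequenced from CD43-depleted splenocytes, 4 cKO and 3 WT libraries grouped and numbered by the sample titles. Per the file headers, the values the authors deposited are FPKM, each marked OK or not. TopHat2, Cufflinks, Cuffdiff and build mm9 appear, per the submitters' processing notes, without versions or roles. The positions overlapped the GRCm38 gene of the same symbol for 98.3% of 21786 symbols found once in GENCODE M21 and for all 37 members, so they are given as GRCm38. FPKM keep no read counts, so depth is unknown, and SDs are over libraries. An FPKM of at least 1 was reached by 9579 to 10396 genes in cKO and 9466 to 9714 in WT. The authors' own comparison, also deposited, gives for q2 over q1 a q-value, its p-value and a test statistic (a score), per the file headers.

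Of 23845 rows, 23508 had status OK in all 7 libraries, and 10065 with a mean of at least 1 FPKM were tested, all 37 members among them. Limma 3.58.1 in R 4.3.3 (lmFit, eBayes with a trend) was fitted to log2(FPKM + 0.5), and its two-sided p-values were adjusted by Benjamini-Hochberg over these genes, with 0.05 as the threshold. This scale understates fold changes of low genes. The fit had no covariate, and a lane term was an alternative. Exact permutation tests used scipy 1.17.1. The script was tested on simulated data with known changes. The 37 members and all lists were chosen with earlier results of these data known. All 37 are named. Full statistics go to members called in either fit and to the 5 with the smallest p, to the other pathway genes called in either fit (1 is not reported here), and to some members shown for their role, chosen after their values were seen. Alternatives covered the pseudocount, the filter, the limma prior, scaling, lane, pairing, threshold and each library left out. Figures were drawn with matplotlib 3.10.9.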

Additional observations from a re-analysis of the deposited data

How the results depend on the processing

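The genes called over all genes numbered 133 and depended on the setting: 55 with a pseudocount of 1, 1 with no filter on low values, 6 with a mean of at least 5, 304 with median centring (233 higher and 71 lower), 3146 centred on the B cell markers (3137 higher), 1085 with the lane term (965 higher and 120 lower), 2228 with the lane term and median centring (952 higher and 1276 lower), 612 in lane 5 alone, 283 in lane 7 alone, 224 at an adjusted p under 0.1, and 0 to 220 with a library left out, with 220 without WT 1, 1 without WT 2 and 0 without each of the others. Members called numbered 0 as reported, in lane 5 or 7 alone, under the other pseudocounts, filters and limma priors, with quantile normalization, and without each library in turn. They numbered 2 with median centring, 9 centred on the B cell markers, 1 with the lane term, 14 with the lane term and median centring, and 0 to 12 with the lane term and a library left out, an alternative chosen after seeing the data, with 12 without cKO 4, 1 without cKO 2 and 0 without each of the others. Of the other pathway genes 1 was called, with 0 without a filter, 6 with median centring, 3 with quantile normalization, 16 centred on the B cell markers, 7 with the lane term, 14 with the lane term and median centring, 5 in lane 5 alone, and 0 to 1 with a library left out. The median fold change of the members was 0.28 centred on the B cell markers and -0.48 to -0.07 with a library left out. With the lane term and a library left out, the fold change of Syk was -0.74 to -0.57.

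Of 38 genes followed (the 37 and Foxp1), 11 kept the sign of their fold change in all alternatives and 27 did not, and the cause was not tested. Centred on the B cell markers the fold change changed sign for Dapp1 (0.25), Lat2 (0.20), Nck1 (0.38), Grb2 (0.13), Dok3 (0.089), Cblb (0.41), Vav1 (0.28), Rac2 (0.29), Plcg2 (0.39), Itpr1 (0.29), Itpr3 (0.12), Stim1 (0.43), Orai1 (0.47), Ppp3cb (0.32), Nfatc1 (0.17), Nfatc3 (0.066), Prkcd (0.49), Malt1 (0.0082), Bcl10 (0.16), Nras (0.29) and Map2k1 (0.30). In lane 5 alone it did so for Dapp1 (0.14), Nck1 (0.052), Cblb (0.066), Plcg2 (0.15), Itpr1 (0.025), Stim1 (0.060), Orai1 (0.11), Prkcd (0.31), Nras (0.041) and Map2k1 (0.035). With the lane term it did so for Stim1 (0.0092), Orai1 (0.11) and Prkcd (0.091). With median centring as well it did so for Orai1 (0.018) and Prkcd (0.00098). In lane 7 alone it did so for Vav3 (-0.15) and Orai1 (0.098). With quantile normalization it did so for Nfatc2 (-0.15), Prkcd (0.0059) and Sos1 (-0.15). With median centring it did so for Sos1 (-0.0023). With a library left out, the sign changed for Vav2 (-0.15 to 0.23), Nck1 (-0.39 to 0.0059), Plcg2 (-0.34 to 0.083), Stim1 (-0.26 to 0.11), Orai1 (-0.36 to 0.19), Prkcd (-0.25 to 0.16), Map2k1 (-0.49 to 0.0060), Cblb (-0.34 to 0.055), Cbl (-0.17 to 0.33), Vav3 (-0.089 to 0.16), Rac1 (-0.16 to 0.24), Nfatc2 (-0.21 to 0.32), Sos1 (-0.22 to 0.16). The share of Nfatc1 in its family, higher in cKO by 0.980 percentage points, was at -0.13 in lane 5 alone and ranged from -1.90 to 2.52 with a library left out.

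Replicate numbers 1 to 3 stand in both groups, and the deviations of same-numbered libraries had correlations of -0.41, -0.50 and -0.69 over genes. Each same-numbered pair was split between lanes 5 and 7, so these values cannot tell whether the numbers mark pairs. For WT 1 with cKO 2 and with cKO 3, all on lane 7, the correlations were 0.68 and 0.74. A fit with the replicate number as a block, over the 6 libraries numbered 1 to 3, called 0 genes, 0 members and 0 other pathway genes. There the sign changed for Cbl (-0.17), Vav2 (-0.15), Vav3 (-0.089), Rac1 (-0.16), Nfatc2 (-0.21) and Sos1 (-0.22). The depth behind each FPKM is not known, so the counting error of low genes such as Nfatc2 and Sos1 is not known either.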
